A study of Mus musculus with 12 samples.

Results

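Interleukin-2 (IL-2) and the chains of its receptor were followed in naïve CD8+ T cells from mice, with or without triggering of the T cell receptor. An agonistic antibody to LAIR-1, an inhibitory receptor for collagen, or an isotype control was present at the same time. The members are 4 genes chosen by name: Il2, which encodes the cytokine, and Il2ra, Il2rb and Il2rg, which encode the alpha, beta and common gamma chains of the receptor. All 4 were found among the 14323 genes of the count table. Spleen cells sorted as TCRβ+CD8+CD62L+CD44- from 3 wild type mice were kept at 100000 cells per well for 6 h in wells coated overnight. In the unstimulated isotype group the wells carried isotype control antibody, and in the unstimulated anti-LAIR-1 group the agonistic anti-LAIR-1 antibody 2C7. The library labels of these groups (iso_iso and iso_2C7) also name an isotype in the place of anti-CD3. In the anti-CD3 isotype group and its anti-LAIR-1 counterpart, wells carried isotype control or 2C7 together with anti-CD3ε (clone 145-2C11), each coated at 2.5 µg/ml. Every mouse gave 1 library in each of the 4 conditions, 12 in all. All cells were wild type, no costimulating antibody is named in the sources used here, and the age of these animals is not given in the labels.

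IL-2 is the classical T cell growth factor, secreted soon after antigen receptor triggering and taken up by the cell that made it and by its neighbours. The beta and gamma chains together form a signalling receptor of intermediate affinity on resting cells, and addition of the alpha chain (CD25) gives the receptor of high affinity. Binding of IL-2 activates the kinases JAK1 and JAK3 and the transcription factor STAT5, and also the MAP kinase and PI3 kinase pathways. The gamma chain is shared with the receptors for IL-4, IL-7, IL-9, IL-15 and IL-21, and the beta chain with the receptor for IL-15. Transcription of Il2 in T cells depends on NFAT, AP-1 and NF-κB factors, and its mRNA is short-lived.

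In the GENCODE M21 annotation of mm10 (GRCm38), Il2 lies on the minus strand at chr3:37120523-37125959 with 4 exons. Il2ra is a plus strand gene of 8 exons at chr2:11642807-11693193. Il2rb spans chr15:78479256-78495271 on the minus strand in 10 exons, and Il2rg spans chrX:101264378-101268255 on the minus strand in 8 exons. The reads came from the 3′ ends of transcripts, which for all 4 genes lie in the last exon, whose length is 695 bases in Il2, 3436 in Il2ra, 2928 in Il2rb and 660 in Il2rg. Il2 overlaps the germ cell gene Adad1 on the opposite strand, which had 0 or 1 count in every library. Gm37881 overlaps Il2ra and Gm20489 overlaps Il2rg, each on the same strand, and how reads from such overlaps were assigned is not given in the sources used here.

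The promoters are shown because both Il2 and Il2ra are known to be switched on from short upstream regions. RefSeq (GRCm38.p6) gave the 250 bases before the start of 3 of the 4 genes, written 5′ to 3′ on the strand of the gene. The windows are chr3:37125955-37126204 (minus strand) for Il2, chr2:11642542-11642791 (plus strand) for Il2ra and chrX:101268256-101268505 (minus strand) for Il2rg. Capitals mark matches on either strand to the NFAT core GGAAA, the NF-κB form (GGG, any 5 bases, CC), the ETS form CCGGAAG and the TATA box TATAAA.
Il2: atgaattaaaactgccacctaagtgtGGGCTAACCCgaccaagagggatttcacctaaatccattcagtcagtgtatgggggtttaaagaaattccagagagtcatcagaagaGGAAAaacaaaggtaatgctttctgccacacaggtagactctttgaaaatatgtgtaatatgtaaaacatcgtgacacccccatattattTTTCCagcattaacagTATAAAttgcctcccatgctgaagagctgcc
Il2ra: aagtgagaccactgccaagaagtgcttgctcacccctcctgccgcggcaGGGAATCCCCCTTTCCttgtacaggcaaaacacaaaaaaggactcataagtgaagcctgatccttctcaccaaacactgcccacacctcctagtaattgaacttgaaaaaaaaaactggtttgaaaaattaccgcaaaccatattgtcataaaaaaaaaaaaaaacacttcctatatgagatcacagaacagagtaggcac
Il2rg: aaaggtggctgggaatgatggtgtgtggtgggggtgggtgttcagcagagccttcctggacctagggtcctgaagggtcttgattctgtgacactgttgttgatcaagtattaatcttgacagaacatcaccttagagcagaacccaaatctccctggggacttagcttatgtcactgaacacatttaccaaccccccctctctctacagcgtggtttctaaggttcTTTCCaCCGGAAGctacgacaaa
The Il2 window held 2 matches to the NFAT core, at -137 to -133 and, on the opposite strand, at -47 to -43 from the start, and 1 to the NF-κB form at -224 to -215. It also held a TATA box at -31 to -26, which neither of the other windows had. In the Il2ra window the capitals are 1 run in which overlapping matches to the NF-κB form (-201 to -191) adjoin an NFAT core on the opposite strand (-190 to -186). The Il2rg window held an NFAT core on the opposite strand (-23 to -19) and an ETS match (-17 to -11). Neither the AP-1 form TGANTCA nor the STAT form TTCNNNGAA occurred in these letters in the 3 windows. These forms are short: of 32851 promoter windows of the same length, 55.6% held the NFAT core, 45.8% the NF-κB form, 6.91% the ETS form, 12.4% the TATA box, 6.75% the AP-1 form and 7.02% the STAT form. A match is a description of the letters and was not tested as a binding site. Variants that differ from these forms in a letter or in length are not marked, so lower case does not show that a site is absent.

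Between 1781218 and 7725545 counts were obtained per library, with a group median of 2304214 for isotype and 3548881 for anti-LAIR-1 without stimulation, and of 4883760 and 6204054 with anti-CD3. Levels are given in CPM, counts scaled to the library size after TMM normalization, and 3 counts corresponded to 0.388 to 1.68 CPM. Mitochondrial transcripts made up 17.6% to 20.9% of the counts in unstimulated and 11.5% to 13.2% in anti-CD3 libraries. Lair1 itself had between 0 and 7 counts per library. Of 10 markers of naïve CD8+ T cells, 10 had counts in every library. Their summed level was 6656 to 7284 CPM in unstimulated libraries, 2286 to 2479 CPM with anti-CD3 and isotype, and 2861 to 3344 CPM with both anti-CD3 and anti-LAIR-1, and the part of either measure in the results was not tested. A list of 4 markers of CD4+ and regulatory T cells, which can carry CD25 at rest, summed to 10.8 to 20.003 CPM (isotype) and 11.4 to 13.7 CPM (anti-LAIR-1) without anti-CD3, and to 2.41 to 4.23 CPM (isotype) and 2.75 to 3.37 CPM (anti-LAIR-1) with it. Most of this sum was Ikzf4, with 283 counts over all libraries against 15 for Cd4, 32 for Foxp3 and 9 for Zbtb7b. Its fall with anti-CD3 was therefore mainly a fall of that gene. Foxp3 had 0 to 8 counts per library. Over all libraries the summed levels were 1.08 to 10.2 CPM for B cell, 0 to 3.63 CPM for NK cell, 31.4 to 63.9 CPM for myeloid (nearly all of it Cst3) and 0 to 3.72 CPM for erythroid or platelet markers. Only 6 of 7 B cell, 3 of 5 NK cell, 6 of 8 myeloid and 3 of 7 erythroid or platelet markers were found in the count table. Lyz2 and the listed haemoglobin genes had no row under these names, so these sums are a partial check. Among the NK cell markers, Klri2 had 0 counts in every unstimulated library and 6 to 21 with anti-CD3. Klrb1c and Klrb1f had 3 counts each over all libraries. In bulk libraries such as these, fewer cells that express a gene and less RNA per cell cannot be told apart.

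Il2 RNA was all but absent without anti-CD3. Its count was 0, 0 and 0 in mice 1, 2 and 3 in the unstimulated isotype group, and 0, 1 and 0 in the unstimulated anti-LAIR-1 group. With anti-CD3 and isotype the counts were 50, 84 and 107, or 15.1, 17.8 and 17.2 CPM. With anti-CD3 and anti-LAIR-1 they were 69, 38 and 39, or 9.31, 6.42 and 8.26 CPM. The unstimulated libraries thus lay below all anti-CD3 libraries, and among the latter every anti-LAIR-1 library lay below every isotype library (plot of the members' levels by library). Set against a floor of 3 counts over the unstimulated isotype group, the level with anti-CD3 and isotype was at least 41.3-fold higher (241 against 0 counts). In the presence of anti-LAIR-1 the ratio was 89.9, with a counting interval of 15.9 to 3574, since it rested on 146 counts against 1.

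In wells with anti-CD3, Il2 RNA was lower with anti-LAIR-1, at 7.997 ± 1.46 CPM (SD, n = 3), than with isotype, at 16.7 ± 1.41 CPM. The log2 fold change was -1.07 (SE 0.20, 95% CI -1.49 to -0.65), and edgeR's quasi-likelihood test gave an adjusted p of 0.00332. Within mice, the difference in log2 CPM was -0.67 in mouse 1, -1.41 in mouse 2 and -1.02 in mouse 3. Of the level that anti-CD3 added with isotype, 61.6%, 34.6% and 48.0% was reached with anti-LAIR-1 in mice 1, 2 and 3 (48.1% ± 13.5, SD, n = 3). At these counts the call was sensitive to depth: with every library thinned to the smallest total, the log2 fold change was -0.86 and the adjusted p 0.119, whereas over all alternatives it ranged from 3.89e-05 to 0.119.

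Il2ra, the inducible chain that gives the receptor its high affinity, was detected at a low level without anti-CD3 and rose with it in every mouse. The unstimulated isotype libraries had 7.94, 10.2 and 9.17 CPM in mice 1, 2 and 3, and the unstimulated anti-LAIR-1 libraries 9.70, 9.02 and 8.30 CPM. With anti-CD3 and isotype the levels were 268, 307 and 318 CPM, and with anti-CD3 plus anti-LAIR-1 they were 219, 207 and 215 CPM. The unstimulated groups overlapped, whereas the anti-CD3 groups did not overlap with them or with each other.

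Anti-CD3 raised Il2ra by 5.00 on the log2 scale with isotype (SE 0.15, adjusted p = 3.19e-18, edgeR) and by 4.56 with anti-LAIR-1 (SE 0.12, adjusted p = 2.60e-16, edgeR). Within mice the level rose 33.7-, 30.1- and 34.7-fold with isotype, and 22.6-, 23.0- and 25.9-fold with anti-LAIR-1. Compared directly among the anti-CD3 libraries, anti-LAIR-1 lowered Il2ra from 298 ± 26.6 to 214 ± 6.15 CPM (SD, n = 3). This was a log2 fold change of -0.49 (SE 0.08, 95% CI -0.65 to -0.33, adjusted p = 0.000820, edgeR), and the within-mouse differences were -0.29, -0.57 and -0.56. The part of the anti-CD3 increment reached with anti-LAIR-1 was 71.5% ± 8.03 (SD, n = 3), from 66.7% to 80.7% in single mice. Without anti-CD3 the antibody left a log2 difference of -0.01 in Il2ra (95% CI -0.60 to 0.58), an interval that at 17 to 35 counts per library is too wide to exclude an effect of the size seen with anti-CD3.

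**Figure D1:**
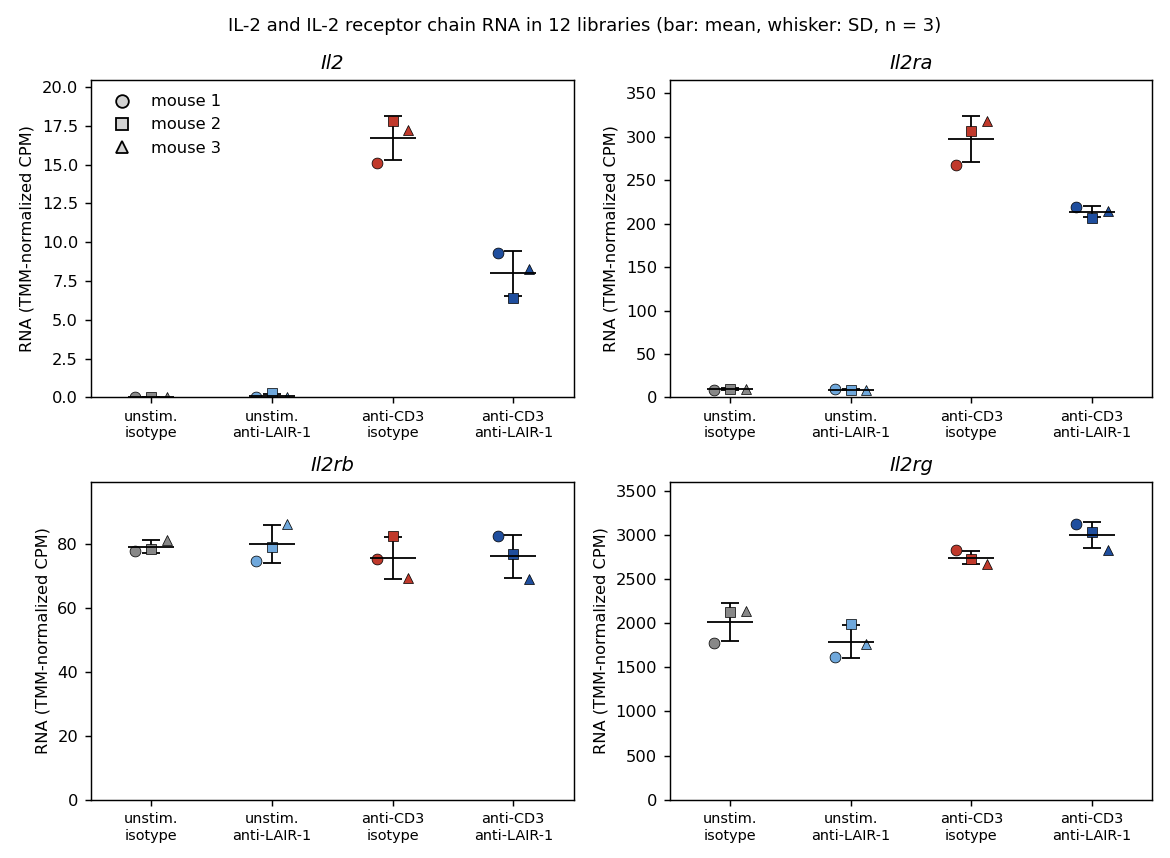
RNA level of Il2, Il2ra, Il2rb and Il2rg in TMM-normalized CPM (linear axes from 0) by condition; symbols are mice, horizontal bars the mean and whiskers the SD of 3 libraries. Il2 lay at 15.1 to 17.8 CPM with anti-CD3 plus isotype and at 6.42 to 9.31 CPM with anti-CD3 plus anti-LAIR-1, Il2ra at 268 to 318 and 207 to 219 CPM, while Il2rb lay between 69.1 and 86.5 CPM in all conditions.

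Il2rb, the chain that carries much of the signalling capacity and is shared with the IL-15 receptor, had nearly the same level in all 4 conditions. Libraries of mice 1, 2 and 3 had 77.8, 78.4 and 81.4 CPM (unstimulated isotype) and 74.8, 79.1 and 86.5 CPM (unstimulated anti-LAIR-1). With anti-CD3 they had 75.3, 82.4 and 69.3 CPM (isotype) and 82.5, 76.9 and 69.1 CPM (anti-LAIR-1). All 4 groups overlapped, and from the unstimulated anti-LAIR-1 group through the unstimulated isotype and the anti-CD3 anti-LAIR-1 group to the anti-CD3 isotype group the means fell within the spread (80.1, 79.2, 76.2 and 75.7 CPM). The log2 fold change was -0.10 for anti-CD3 with isotype (95% CI -0.35 to 0.14, adjusted p = 0.455, edgeR) and -0.07 for anti-CD3 with anti-LAIR-1 (95% CI -0.29 to 0.14, adjusted p = 0.532, edgeR). For anti-LAIR-1 with anti-CD3 it was 0.01 (95% CI -0.20 to 0.22, adjusted p = 0.974, edgeR), and for anti-LAIR-1 without anti-CD3 0.02 (95% CI -0.23 to 0.26). With upper quartile scaling, which shifted the median of all genes by -0.18 in isotype wells and -0.21 in anti-LAIR-1 wells, the anti-CD3 effects were -0.28 in both and passed the test (adjusted p = 0.0402 and 0.0228, edgeR), and over the alternatives the adjusted p ranged from 0.0402 to 0.961 and from 0.0228 to 0.946.

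Il2rg, the common gamma chain, was already high at rest. Its level was 1770, 2131 and 2140 CPM in the unstimulated isotype libraries of mice 1, 2 and 3, and 1620, 1987 and 1762 CPM in the unstimulated anti-LAIR-1 libraries. With anti-CD3 it was 2826, 2726 and 2675 CPM with isotype and 3128, 3035 and 2834 CPM with anti-LAIR-1. The unstimulated groups overlapped, and each anti-CD3 group lay above both of them. Anti-CD3 raised Il2rg by 0.41 on the log2 scale with isotype (SE 0.08, adjusted p = 0.000135, edgeR) and by 0.74 with anti-LAIR-1 (SE 0.07, adjusted p = 3.18e-08, edgeR).

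With anti-CD3, every anti-LAIR-1 library lay above every isotype library for Il2rg, but the difference was small (log2 fold change 0.12, 95% CI -0.01 to 0.25, adjusted p = 0.305, edgeR). It was positive in 3 of 3 mice (0.15, 0.15 and 0.08). Without anti-CD3 the difference was negative in 3 of 3 mice (-0.13, -0.10 and -0.28), with a log2 fold change of -0.17 (95% CI -0.35 to 0.01, adjusted p = 0.997, edgeR). The interaction of both antibodies was 0.30 (95% CI 0.06 to 0.54) (unadjusted p = 0.0153, adjusted p = 0.241, edgeR), so the difference between these effects did not pass the test over all genes.

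Among all members, 3 rose with anti-CD3 and 1 did not pass the test, with either coated antibody. This is read against a broad response: of the genes tested, 35.3% were higher and 36.1% lower with anti-CD3 and isotype, and 36.4% were higher and 36.3% lower with anti-CD3 and anti-LAIR-1. This even split depended on the scaling, since with upper quartile scaling 2637 genes were higher and 3616 lower with isotype, and 2699 higher and 3956 lower with anti-LAIR-1. The same 3 members had groups that did not overlap, as did 73.5% of tested genes with isotype and 74.8% with anti-LAIR-1. When anti-LAIR-1 was added to anti-CD3, 0 members rose and 2 fell, against 3.90% of tested genes called higher and 1.86% called lower. Groups did not overlap for 3 members (Il2, Il2ra and Il2rg) and for 24.0% of tested genes. Ranked by p, Il2 stood at 119 among the 8800 genes tested.

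Without anti-CD3, anti-LAIR-1 changed 0 of the 3 members that could be tested, and 0% of the 8770 genes tested in edgeR, of which 384 had an unadjusted p under 0.05. The groups overlapped for all members, while 9.66% of tested genes had groups that did not. For the interaction, 0 of 4 members were called, beside 1.82% of tested genes called higher and 0.249% called lower. The interaction of Il2ra was -0.48 (95% CI -0.94 to -0.01, unadjusted p = 0.0455, adjusted p = 0.395 in edgeR) and that of Il2rb was -0.00 (95% CI -0.32 to 0.31). For Il2 the fitted interaction rests on a single count without anti-CD3 and is not given. On the log2 scale it was therefore not shown that the effect of anti-LAIR-1 on Il2ra depended on anti-CD3. In CPM, mean Il2ra was 9.11 (isotype) and 9.01 (anti-LAIR-1) without anti-CD3, and 298 and 214 with it. For Il2 the interaction cannot decide this, because without anti-CD3 there was almost no Il2 RNA that anti-LAIR-1 could lower.

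**Figure D2:**
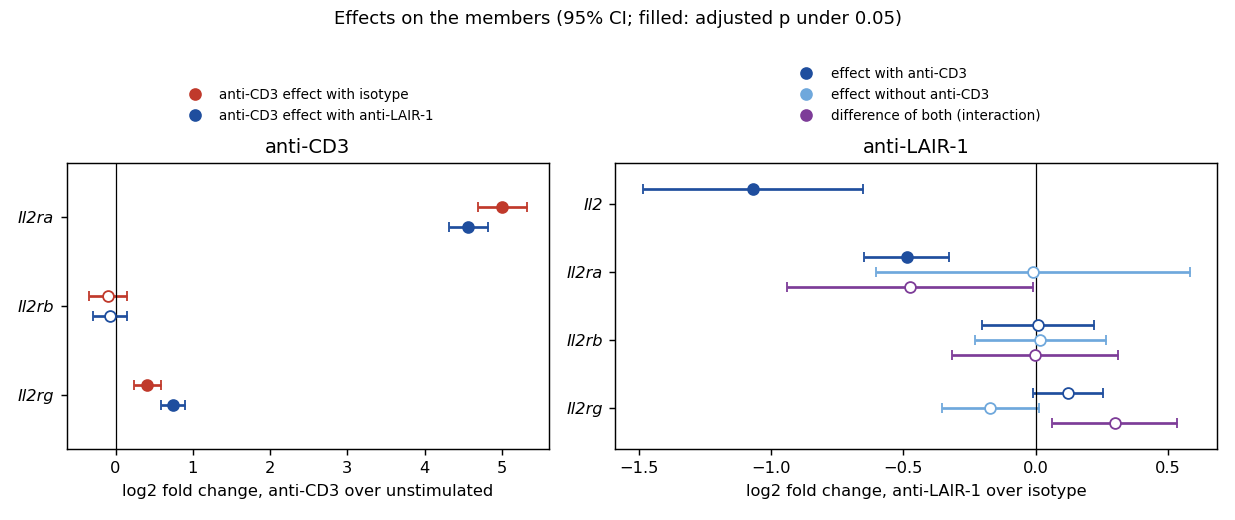
Log2 fold changes with 95% CI for anti-CD3 over unstimulated (left) and for anti-LAIR-1 over isotype (right), from edgeR; filled symbols have an adjusted p under 0.05. Il2 is left out where the unstimulated group had 0 or 1 count. Anti-LAIR-1 with anti-CD3 gave -1.07 for Il2 and -0.49 for Il2ra, and intervals that include 0 for Il2rb and Il2rg.

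The other receptor chains that pair with the gamma chain were Il4ra, Il7r, Il15ra and Il21r. Il9r had no row under this name in the count table and was not analysed. With anti-CD3 and isotype 2 of the 4 rose and 1 fell, and the same counts were obtained with anti-LAIR-1. The shares over all tested genes were 35.3% higher and 36.1% lower with isotype, and 36.4% and 36.3% with anti-LAIR-1. Il7r, the receptor chain for the survival cytokine IL-7, is known to be switched off in activated T cells. It stood at 340, 371 and 270 CPM in the unstimulated isotype libraries and at 399, 405 and 297 CPM in the unstimulated anti-LAIR-1 libraries. With anti-CD3 it fell to 5.74, 5.72 and 4.99 CPM with isotype, but to 13.2, 12.3 and 15.9 CPM with anti-LAIR-1. The anti-CD3 groups did not overlap with each other, and anti-LAIR-1 raised Il7r among them by 1.33 on the log2 scale (SE 0.22, adjusted p = 0.00124, edgeR). The log2 change with anti-CD3 was -5.95 (SE 0.16) in isotype wells and -4.75 (SE 0.14) in anti-LAIR-1 wells.

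Il15ra, the alpha chain for IL-15, had 0 counts in the 3 unstimulated isotype libraries and a mean of 0.905 ± 0.575 CPM in the unstimulated anti-LAIR-1 libraries. It rose with anti-CD3 to 12.1, 15.05 and 10.8 CPM with isotype and 11.2, 8.11 and 5.09 CPM with anti-LAIR-1, where the groups overlapped (log2 fold change -0.60, SE 0.25, adjusted p = 0.204, edgeR). Il21r rose with anti-CD3 by 1.60 (SE 0.14) with isotype and 1.58 (SE 0.11) with anti-LAIR-1 on the log2 scale, and had 93.9 ± 6.32 and 98.5 ± 6.56 CPM in the anti-CD3 groups. Il4ra did not pass the test in any comparison, with group means of 36.0 to 44.2 CPM. Of the other ligands of the gamma chain, Il15 was too low to be tested. Il4, Il7, Il9 and Il21 had no row under these names in the count table and were not analysed.

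Genes known to be induced by IL-2 or STAT5 in T cells formed the next list. Most of them also respond directly to the antigen receptor, so that the list does not isolate the action of IL-2. Anti-CD3 with isotype raised 13 and lowered 2 of the 20 tested (median log2 fold change 2.25, against -0.03 over all genes tested). With anti-LAIR-1 it raised 12 and lowered 4 of 19 (median 1.58, against -0.04). Over all tested genes 35.3% were higher and 36.1% lower with isotype, and 36.4% and 36.3% with anti-LAIR-1. Compared among the anti-CD3 libraries, anti-LAIR-1 lowered 8 and raised 0 of the 21 tested genes (38.1% called, where 1.86% of all genes were lower), with a median of -0.39 against 0.00 over all genes. The listed genes were chosen with earlier results of these data known, so this excess may be partly built in.

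Cish, a feedback inhibitor of cytokine receptor signalling, showed the smallest adjusted p of the list. It had 73.8, 78.2 and 102 CPM with anti-CD3 and isotype in mice 1, 2 and 3, and 24.8, 27.4 and 23.1 CPM when anti-LAIR-1 was added, against 3.97 to 7.48 CPM in all unstimulated libraries. The groups were far apart and the log2 fold change was -1.77 (SE 0.13, adjusted p = 9.47e-07, edgeR). Bcl2l1, which encodes the survival protein Bcl-xL, fell from 72.8 ± 7.43 to 40.2 ± 0.575 CPM (log2 fold change -0.87, adjusted p = 6.21e-05). Ccnd2, a D-type cyclin of early cell cycle entry, fell by 0.71 on the log2 scale (adjusted p = 0.000491). Pim1, a survival kinase, fell by 0.87 (adjusted p = 0.00333), although the difference within mice ranged from -0.16 in mouse 1 to -1.44 in mouse 2.

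The remaining genes lowered in this list encode secreted products. Gzmb, the cytotoxic protease granzyme B, had 41.1, 30.5 and 52.8 CPM with isotype and 8.23, 6.59 and 4.66 CPM with anti-LAIR-1 in the anti-CD3 libraries (log2 fold change -2.65, SE 0.22, adjusted p = 1.62e-06, edgeR). Ifng, which encodes interferon-γ, had 38.7, 38.1 and 38.4 CPM with isotype and 16.9, 15.2 and 9.75 CPM with anti-LAIR-1 (-1.44, SE 0.17, adjusted p = 4.09e-05, edgeR). Lif, a cytokine of the IL-6 family, had 19, 19 and 61 counts with isotype and 8, 2 and 8 counts with anti-LAIR-1 (-2.72, SE 0.46, adjusted p = 0.00171, edgeR). Lta, lymphotoxin α, changed by -0.58 (adjusted p = 0.0206). In these 4 genes, as in Il2, no anti-LAIR-1 library reached the lowest isotype library. Myc and Eomes, which are transcription factors of growth and of CD8+ T cell differentiation, are examples of the 13 genes that did not pass, with log2 fold changes of -0.28 (adjusted p = 0.0519) and -0.39 (adjusted p = 0.0964).

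**Figure D3:**
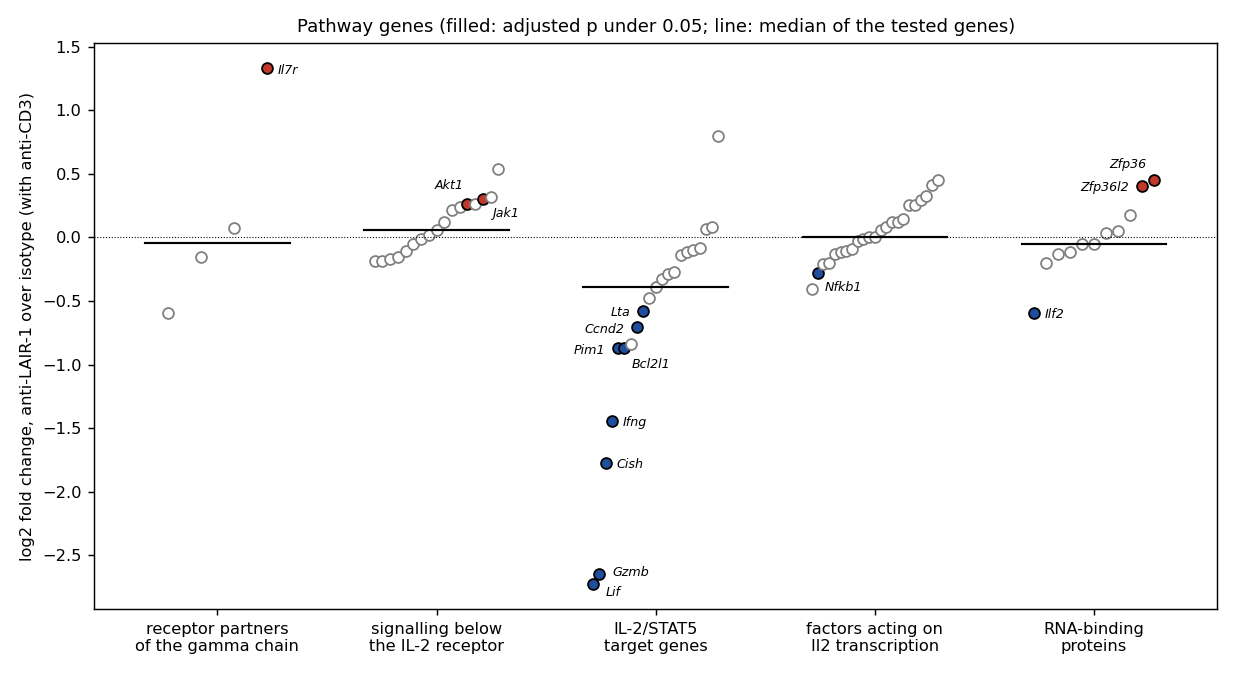
Log2 fold change of anti-LAIR-1 over isotype in the anti-CD3 libraries for the tested genes of 5 lists, from edgeR; filled symbols (blue lower, red higher) have an adjusted p under 0.05 and black lines are medians. Of the IL-2 and STAT5 target genes 8 of 21 were lower and 0 higher, while 1 of 23 factors acting on Il2 transcription was called. Over all tested genes 1.86% were lower and 3.90% higher, and the lists were chosen with earlier results of these data known.

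Kinases, STAT proteins and adaptors below the IL-2 receptor moved in both directions with anti-CD3. With isotype 3 rose and 6 fell of 17 tested (52.9% called, median -0.21), and with anti-LAIR-1 4 rose and 7 fell (64.7% called, median -0.24). Among all tested genes 35.3% were higher and 36.1% lower with isotype, and 36.4% and 36.3% with anti-LAIR-1, so the list was not called more often than genes at large. The largest decreases with isotype were in Mapk3 (-3.28), which encodes the kinase ERK1, in the PI3 kinase subunits Pik3cd (-2.49) and Pik3r1 (-2.32), and in Jak1 (-2.11), the kinase bound to the beta chain. With anti-LAIR-1 they were in Mapk3 (-2.60), Pik3cd (-2.24), Jak1 (-1.80) and Stat5b (-1.63). Among the anti-CD3 libraries anti-LAIR-1 raised 2 and lowered 0 of the 17 (11.8% called, median 0.06), where 3.90% of all genes were higher. These were Jak1 (log2 fold change 0.30, adjusted p = 0.0215) and the kinase gene Akt1 (0.27, adjusted p = 0.0424). The STAT5 genes themselves had -0.17 (Stat5a, adjusted p = 0.535) and 0.12 (Stat5b, adjusted p = 0.734), and Jak3, the kinase bound to the gamma chain, had -0.19 (adjusted p = 0.717).

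Of the factors known to act on Il2 transcription, 11 rose and 6 fell of 22 with anti-CD3 and isotype (median 0.39). With anti-CD3 and anti-LAIR-1 15 rose and 6 fell of 23 (median 0.58). Of all tested genes 35.3% were called higher and 36.1% lower with isotype, and 36.4% and 36.3% with anti-LAIR-1. The largest increases were in the NF-κB genes Rel (3.65 with isotype, 2.92 with anti-LAIR-1) and Nfkb1 (2.12 and 1.92), and in the early growth response genes Egr2 (3.28 and 3.51) and Egr1 (2.00 and 2.12). Added to anti-CD3, anti-LAIR-1 lowered 1 and raised 0 of 23 (4.35% called, where 1.86% of all genes were lower and 3.90% higher), with a median of 0.00. That gene was Nfkb1, the precursor of p50, whose log2 fold change was -0.28, with an adjusted p of 0.0498 that exceeded the threshold in 6 of 10 other settings. Nfatc1, the NFAT gene induced by activation, had 0.25 (adjusted p = 0.0654), and Rel, which encodes c-Rel, had -0.13 (adjusted p = 0.689). The level of RNA does not show the amount of these factors in the nucleus.

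RNA-binding proteins known to act on unstable cytokine mRNAs were the last list. Anti-CD3 raised 6 and lowered 3 of 11 with isotype (median 0.49), and raised 6 and lowered 1 with anti-LAIR-1 (median 0.48). For all tested genes the shares were 35.3% higher and 36.1% lower with isotype, and 36.4% and 36.3% with anti-LAIR-1. The largest changes with isotype were in Zfp36l2 (-1.81), Zfp36l1 (1.68), Ilf2 (1.35) and Elavl1 (1.27), the last of which encodes the stabilizing protein HuR, and with anti-LAIR-1 they were in Zfp36l1 (1.67), Elavl1 (1.40), Zfp36l2 (-1.37) and Hnrnpd (1.01). Anti-LAIR-1 with anti-CD3 raised 2 of the 11 and lowered 1 (27.3% called, median -0.05), where 3.90% of all genes were higher and 1.86% lower. Zfp36, which encodes tristetraprolin, a protein that speeds the decay of AU-rich mRNAs, rose from 91.9 ± 8.41 to 125 ± 10.6 CPM (log2 fold change 0.45, adjusted p = 0.00788), and its relative Zfp36l2 rose by 0.41 (adjusted p = 0.00847). Ilf2, a subunit of an RNA-binding complex first found on the Il2 promoter, fell by 0.59 (adjusted p = 0.0367).

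Over all lists, 15 of 76 tested genes were called for anti-LAIR-1 with anti-CD3, 5 higher and 10 lower. Of all tested genes, 3.90% were called higher and 1.86% lower. The lists were chosen with earlier results of these data known, so the share called in them is not independent of these data. All 15 had the same direction in 3 of 3 mice and groups that did not overlap (plot of within-mouse differences), which is largely set by their selection on the same 6 libraries. Over all tested genes the groups did not overlap for 24.0%. With the mouse as a replicate block, DESeq2 called 8 listed genes. With 1 of the 6 anti-CD3 libraries left out, Akt1 lost the call in every case (adjusted p up to 0.139), Nfkb1 in all but that without the anti-LAIR-1 library of mouse 1 (up to 0.183), and Ilf2 in all but that without the isotype library of mouse 1 (up to 0.158). Jak1 lost it without either library of mouse 2 or mouse 3 (up to 0.121). Lta lost it without the isotype library of mouse 2 (log2 fold change -0.47, adjusted p = 0.118) or the anti-LAIR-1 library of mouse 3 (-0.43, adjusted p = 0.0625), and Zfp36 without the anti-LAIR-1 library of mouse 2 (0.37, adjusted p = 0.0652). Il2, Il2ra and the other called genes kept the call without each library in turn. By DESeq2 without the block, Pim1 (adjusted p = 0.0663) and Akt1 (0.0510) did not pass, and with thinned libraries Jak1 (0.0998), Zfp36l2 (0.109), Nfkb1 (0.0731) and Ilf2 (0.358) did not. Lif had no adjusted p in DESeq2 without the block. Apart from the left-out fits, it had such a value in 6 of 10 settings and kept the call in these. In 9 of the 12 lowered genes, Il2 and Il2ra included, the smallest difference was in mouse 1, and in the other 3 it was in mouse 2.

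**Figure D4:**
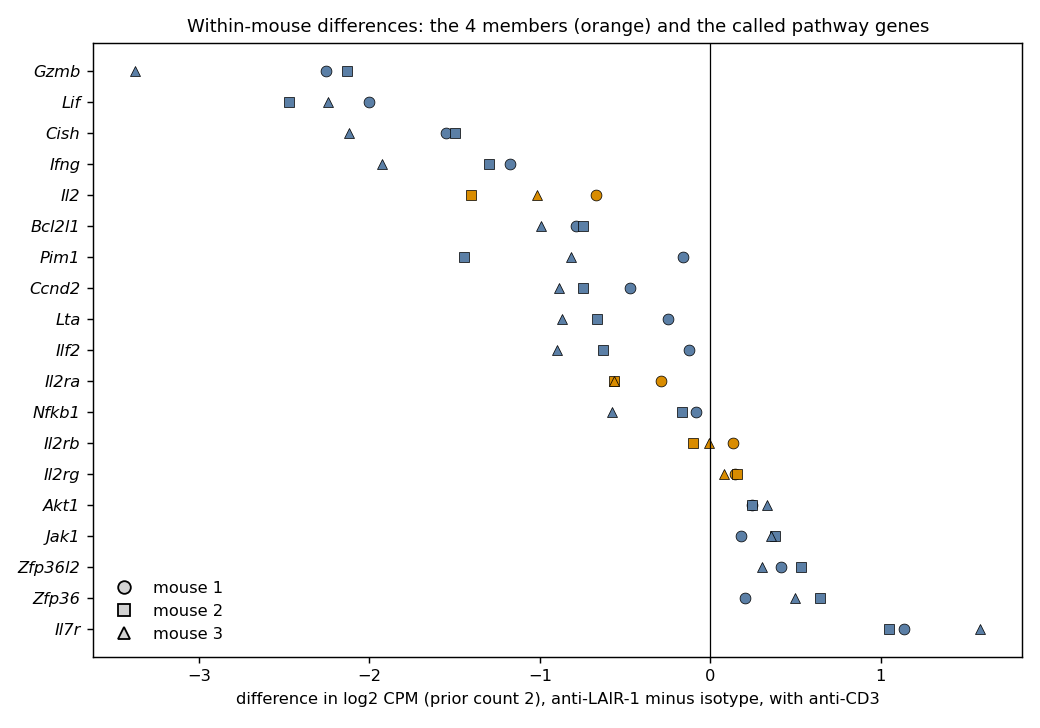
Difference in log2 CPM (prior count 2) between the anti-CD3 anti-LAIR-1 and the anti-CD3 isotype library of each mouse (symbols), for the 4 members (orange) and the 15 called genes of the lists (blue), sorted by the mean. Il2 differed by -0.67 to -1.41 and Il2ra by -0.29 to -0.57, all 3 mice on the same side of 0, whereas Il2rb lay on both sides.

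Genes with the most similar pattern were ranked by Pearson's r of log2 CPM over the 12 libraries, which form an unstimulated and an anti-CD3 cluster, so that r mostly reflects the step between them. For Il2 they were Impdh1, Serpinb9, Psmc6, Ddx27 and Plek (r = 0.994 to 0.995). Il2ra was most like Ndufaf4, Ppid, Npm1, Psmc6 and Eef1e1 (r = 0.998 to 0.999). Of 9222 other genes, 1378 had r over 0.95 with Il2 and 1563 with Il2ra, and ranking by Spearman's rho shared 0 of the 5 genes for either. The anti-LAIR-1 libraries entered this ranking, so that the following fold changes are partly built in. With anti-LAIR-1 among the anti-CD3 libraries, the 5 genes like Il2 had log2 fold changes of -0.16 (Psmc6) to -0.66 (Plek, the signalling adaptor pleckstrin), with -0.64 for Serpinb9, an inhibitor of granzyme B. The 5 genes like Il2ra had -0.16 (Psmc6) to -0.28 (Ndufaf4). Il2rg was most like Rhof, Cltb, Hn1, Arpc4 and Pepd (r = 0.975 to 0.982), with 65 genes over 0.95. Il2rb, whose level hardly varied, had no gene over 0.95, and the nearest were Gm15446, Ccnb2, Vmn2r55, Dennd4a and Cln3 (r = 0.748 to 0.841).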

How the data were processed

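The 12 CEL-seq libraries (3 mice in each of 4 conditions) hold 1 condition of 1 mouse each. The authors sequenced 3′ ends, aligned reads to mm10 with BWA MEM, discarded multi-mapping reads, and deposited raw counts per gene symbol. Whether molecular identifiers were collapsed is not given in the sources used here, so the counting interval and the floor given for Il2 cover counting error only, while intervals of fold changes come from edgeR and include the spread between libraries. Comparisons used the quasi-likelihood F-test of edgeR 4.0.16 in R 4.3.3, with TMM and filterByExpr, and p-values were adjusted by Benjamini-Hochberg across every gene tested, non-coding genes included, with 0.05 as the threshold. The main fits compared group means without a term for the mouse, so their p-values do not use the pairing. Each fit held only the libraries of the groups compared, and the mouse as a block was an alternative. The comparisons share libraries. Log2 CPM used a prior count of 2, and levels were scaled over 12 libraries. DESeq2 1.42.0 was an alternative, beside other scalings, filters and fits, thinning, and leaving out each library. Library totals without TMM and DESeq2 with the mouse block were added after the data were seen. The scripts were tested on simulated data, which checked the code and does not bear on the calls given here. The pairing comes from cells of the same mouse; deviations from group means gave r = 0.0432 on average between libraries of 1 mouse (-0.00682 to 0.0882 over 18 pairs). Replicates differed beyond counting noise (chi-square per degree of freedom 3.81 to 5.62). With 3 against 3, an exact permutation test cannot go below 0.1 and was not used. Named were the members, the receptor partners, listed genes called for anti-LAIR-1 with anti-CD3 or the interaction, at most 4 called genes per list and comparison, and 5 genes of similar pattern; genes named beyond this as not called (Myc, Eomes, Stat5a, Stat5b, Jak3, Nfatc1, Rel) were chosen after their values were seen. The members and the 90 listed genes were chosen with earlier results of these data known, and 1 further gene of the signalling list is not reported here.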

Additional observations from a re-analysis of the deposited data

Results flagged for a closer look

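Of the 76 tested genes of the lists around the IL-2 receptor, 4 passed edgeR's interaction test of both antibodies over 12 libraries. Of these 2 were higher and 2 lower, beside 1.82% and 0.249% of all tested genes. Cish had an interaction of -1.92 on the log2 scale (adjusted p = 0.00173): anti-LAIR-1 libraries had 25.1 against 84.7 CPM with anti-CD3, and 6.31 against 5.84 CPM without it. The interaction of Il7r was 1.17 (adjusted p = 0.0100), with 13.8 against 5.48 CPM and 367 against 327 CPM. Akt1 had 0.51 (adjusted p = 0.0330), with 200 against 166 CPM and 135 against 160 CPM. Bcl2l1 had -1.21 (adjusted p = 0.0430), with 40.2 against 72.8 CPM and 7.79 against 5.94 CPM. With 1 of the 12 libraries left out in turn, Cish kept the call in 12 of 12 fits and Il7r in 11 (not without the anti-CD3 isotype library of mouse 3, where the interaction was 1.09 and the adjusted p 0.0618). Akt1 kept it in 2 fits, without the unstimulated isotype or the anti-CD3 anti-LAIR-1 library of mouse 1 (otherwise up to 0.0982), and Bcl2l1 in 2, without either unstimulated library of mouse 1 (otherwise up to 0.163). Among 9 other settings, Cish kept the call in all, while thinning ended it for Il7r (interaction 0.95, adjusted p = 0.241) and Bcl2l1 (-1.19, adjusted p = 0.154), and the fit with no filter ended it for Akt1 (0.48, adjusted p = 0.0521).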

How the results depend on the processing

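Of 833 values recomputed under an alternative, 716 kept their direction and their side of the threshold, or their size. Il2ra with anti-LAIR-1 and anti-CD3 stayed past the threshold under all 16 alternatives and Il2 under 15, thinning (-0.86) being the exception. Values of Il2rb and Il2ra near 0 changed sign: for Il2rb, anti-CD3 with anti-LAIR-1 gave 0.0177 without a filter (-0.12 to 0.00899 with 1 library left out) and anti-LAIR-1 with anti-CD3 gave -0.00214 (DESeq2), -0.000652 (edgeR with the replicate block), -0.00882 (thinned) and -0.00978 (DESeq2 with the replicate block), and -0.0663 to 0.0769 with 1 library left out. Without anti-CD3 the left-out fits gave -0.0453 to 0.0642 for Il2rb and -0.11 to 0.0863 for Il2ra. The Il2rb interaction was 0.000431 (DESeq2 size factors), 0.00110 (upper quartile) and 0.00345 (library totals), and -0.0711 to 0.0597 with 1 library left out. Upper quartile scaling brought Il2rb past the threshold for anti-CD3 (-0.28 beside either antibody). The cause was not tested.

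Genes called for anti-LAIR-1 with anti-CD3 numbered 507, but 284 thinned, 224 by DESeq2 with the replicate block and 293 to 427 with 1 library left out (293 without the isotype library of mouse 2, 315 and 334 without the anti-LAIR-1 libraries of mice 2 and 3). With the replicate block, edgeR called 549, of which 475 were shared, and the block changed no call of a member. The 15 listed genes called became 8 by DESeq2 with the replicate block and 10 to 15 with 1 library left out. Without anti-CD3, 5 genes were called with no filter and 0 to 1 with 1 library left out. For the interaction, 191 genes became 111 thinned and 103 to 186 with 1 library left out, and 4 listed genes became 7 (DESeq2), 8 (no filter) and 1 to 4 with 1 library left out, the lowest without the anti-CD3 isotype library of mouse 3. Scaled by library totals, mean levels moved beyond 1 SD for Il2ra with both antibodies (205 CPM), Il2rb in the unstimulated isotype group (82.5 CPM) and Il2rg with anti-CD3 and isotype (2619 CPM). Of the 4 members, Il2 had the fewest counts, 38 to 107 per anti-CD3 library.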
